A study of Drosophila melanogaster with 5 samples.

Results

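The cytosolic ribosomal protein (RP) genes of the Drosophila Malpighian tubule were examined in all nuclei of the study, as 92 genes of 16495 in the deposited matrix. They were chosen by symbol alone, as genes named RpL, RpLP or RpS followed by a number, and mitochondrial ribosomal proteins (mRpL, mRpS) were kept apart. Of the 92, 54 belong to the large (60S) and 38 to the small (40S) subunit.

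A ribosome carries each of its proteins in a fixed ratio, so the RP genes are usually expressed together and at high levels in every cell. Their mRNAs are short and abundant and are largely cytoplasmic, so that in isolated nuclei their unique molecular identifiers (UMIs, which mark single captured RNA molecules) come from nuclear transcripts and from whatever cytoplasmic RNA stays with the nucleus. In Drosophila the loss of 1 copy of many RP genes gives the Minute phenotype of slow development and thin bristles. Several RP genes have a second copy, and some of the second copies are known mainly from the germline.

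Nuclei were sorted from Malpighian tubules (MTs), the fly kidney, of adult females held at 29 °C, and each library pooled 90 pairs of tubules. EGT>w1118 carried esg-GAL4, tub-GAL80TS and UAS-GFP, and EGT>Yki carried UAS-yki3SA in addition, which gives a gut tumor driven from esg-positive progenitor cells. PCts>W1118 carried CG31272-GAL4 and tub-GAL80TS, a temperature-controlled driver for principal cells (PCs), PCts>Pvr Activation added UAS-Pvr act, an activated form of the PDGF/VEGF receptor Pvr, and PCts>Pvr RNAi added UAS-Pvr RNAi. The descriptions give the time at 29 °C as 8 days in one field and 5 days in another.

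There was 1 library per genotype, so no difference between libraries has a replicate check, the library and the genotype cannot be told apart, and every interval below covers counting error only. The libraries held 3380, 3640, 3015, 9367 and 1969 nuclei in the order above, with median depths of 1516 to 3889 UMIs per nucleus. These are all nuclei of the deposited annotation, and for the EGT libraries they exceed the cell numbers that the study states, so nuclei that the study left out may be among them. The transgene target Pvr had a mean of 27.0 UMIs per 10,000 in PCts>Pvr Activation, and 4.3 in PCts>W1118. In PCts>Pvr RNAi its mean over nuclei was 4.74, but with UMIs pooled it was 6.29 against 7.11 in PCts>W1118, and in main segment PCs the mean was 8.61 against 9.09. It was 4.66 against 6.16 in initial and transitional PCs, 1.96 against 2.46 in upper ureter PCs and 7.17 against 6.22 in lower tubule PCs. Over all nuclei the target thus differed little from the control, and the direction depended on the weighting and the cell type. This library is therefore called RNAi-labelled below. These UMIs come from nuclei, so whether the knockdown took place was not tested. Among cell type labels, stellate cells, visceral muscle and fat body had their marker lists above every other type, and the tracheal list summed to 5.04 to 13.7 UMIs per 10,000 in tracheal cells and to at most 2.27 elsewhere. The renal stem cell label was checked on Notch (N) alone, which summed to 0 to 3.8 UMIs per 10,000 there. Notch was higher in renal stem cells 2 (Pvr-act), at 7.35 to 14.8. The main segment list (Uro, List, NaPi-T) reached 13.6 to 26.7 in renal stem cells against 17.4 to 26.1 in main segment PCs. That list also reached up to 36.6 in visceral muscle, 22.8 in tracheal cells and 22.0 in PC-like nuclei. In lower segment PCs 2 (Pvr-act) of PCts>Pvr Activation the hemocyte list (Hml, NimC1, Ppn, Col4a1) summed to 144 UMIs per 10,000, which goes against the name. In lower ureter PCs a list of enterocyte (gut) markers summed to 0.385 to 6.61 UMIs per 10,000 over libraries. In every other type it was at most 0.346. Whether the lower ureter label holds some gut RNA, to a degree that differs between libraries, was not tested. Of 21318 distinct barcodes, 53 occurred in more than 1 library.

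All 92 genes had a row in the matrix, and their abundances fell into separate ranges. Over all libraries, 81 genes had between 12868 UMIs (RpL22) and 214856 UMIs (RpLP1). RpLP0-like and RpS15Ab had 1956 and 1346. The other 9 were far below these, and all of them are second copies or -like genes. RpS28a had no UMI in any library. The 60S genes held 60.3% to 61.2% of RP UMIs in each library, and 57.8% to 61.7% in each cell type with at least 20 nuclei. The gene with the most UMIs was RpLP1 in all 5 libraries, with 2.25% of RP UMIs in EGT>w1118 and 2.70% in EGT>Yki, so that no single gene carried the RP total. RpLP1 encodes a P-stalk protein, part of the lateral arm of the 60S subunit that contacts the GTP-binding translation factors.

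Of all UMIs, RP genes made up 7.12% in EGT>w1118, 8.64% in EGT>Yki, 6.33% in PCts>W1118, 8.98% in PCts>Pvr Activation and 12.2% in the RNAi-labelled library. A share is relative, so it also moves when other RNAs become more or less frequent. The totals hide a wide spread between cell types within each library. In PCts>W1118 the share ran from 2.45% in main segment PCs 2 to 25.0% in visceral muscle, and in EGT>w1118 from 2.92% to 25.6%.

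Main segment PCs, the bulk of the secretory tubule, had an RP share of 3.55% in EGT>w1118, 3.07% in EGT>Yki, 2.94% in PCts>W1118 and 8.63% in the RNAi-labelled library. Initial and transitional PCs were at 3.55%, 3.20%, 3.17% and 6.97% in the same order, and lower tubule PCs at 4.33%, 4.92%, 5.56% and 8.08%. The RNAi-labelled library was above the other 3 in each of these classes. Stellate cells, which carry the chloride and water flow of the tubule, had 11.1%, 8.00%, 9.59% and 16.4%.

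Nuclei labelled renal stem cells had 24.6%, 20.7%, 21.4% and 27.9%, and upper ureter PCs 22.5%, 19.3%, 19.2% and 30.2%. Both types lay above the main segment, transitional, lower tubule and stellate nuclei of their own library in all 4 libraries that hold them. In absolute numbers the order was different, since renal stem cell nuclei were shallow. They held a mean of 273 RP UMIs per nucleus in EGT>w1118 and 195 in PCts>W1118, against 432 and 290 in main segment PCs, whose median depths were 11480 and 9678 UMIs against 548 and 511.

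**Figure D1:**
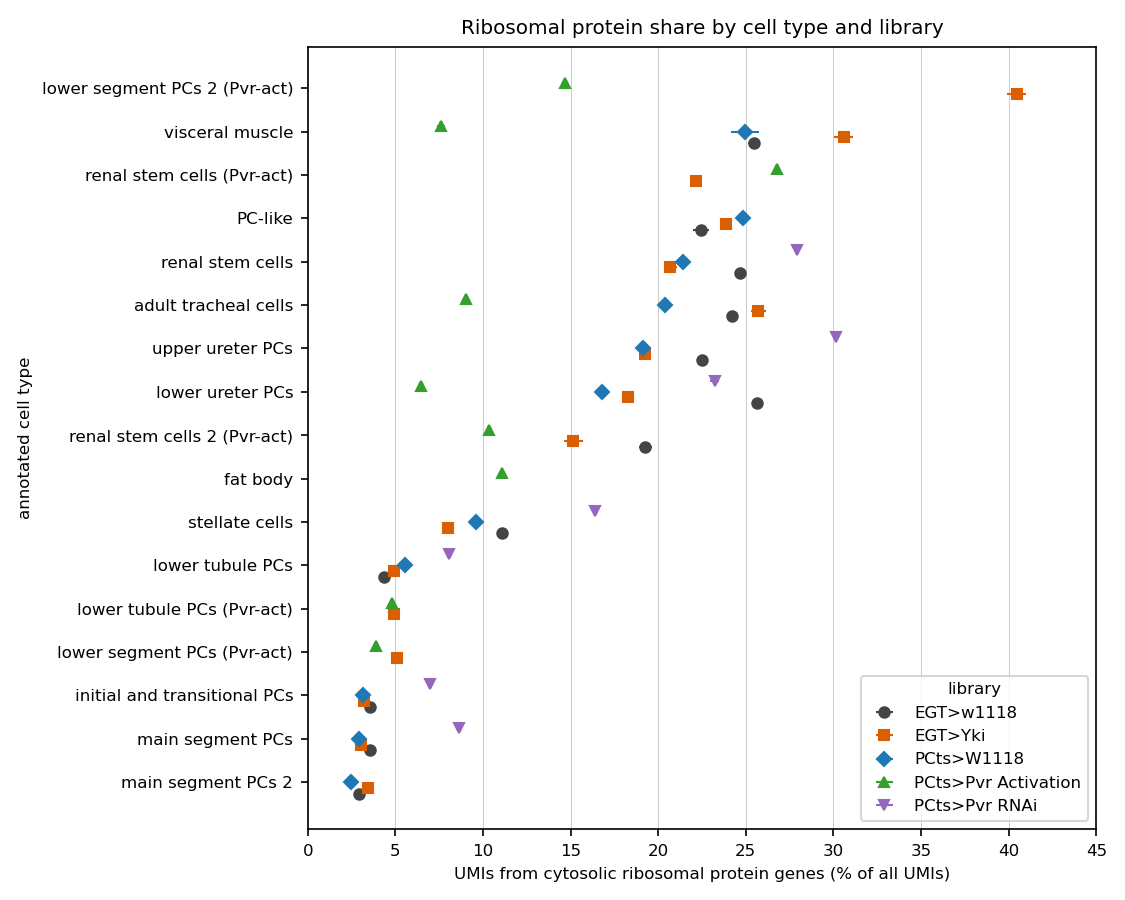
RP UMIs as a percentage of all UMIs (x axis, linear) for each annotated cell type (y axis, ordered by the median over libraries), with 1 point per library holding at least 20 nuclei of the type and bars for the 95% exact binomial interval. Main segment PCs lie at 2.94% to 3.55% in 3 libraries and at 8.63% in the RNAi-labelled library, and tracheal, lower ureter and visceral muscle nuclei of PCts>Pvr Activation lie at 6.44% to 9.04%, left of the same types elsewhere.

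Mitochondrially encoded transcripts, which are not made in the nucleus, were also more frequent in the types with a high RP share. They made up 1.10% of UMIs in renal stem cells of EGT>w1118 and 0.591% in those of PCts>W1118, against 0.146% and 0.0832% in main segment PCs, and 2.20% and 1.44% in tracheal cells. Their part in the RP share of these types was not tested.

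The RP share was also set out by depth, and the part of depth in the difference between types was not tested. Among nuclei of over 4000 to 8000 UMIs in PCts>W1118, the RP share was 26.3% in 27 renal stem cell nuclei, 22.8% in 46 upper ureter nuclei and 3.36% in 168 main segment nuclei. In EGT>w1118 the same bin gave 27.6% in 59 renal stem cell nuclei and 4.47% in 83 main segment nuclei. Within renal stem cells the share was higher in deeper bins, from 20.1% at up to 500 UMIs to 27.6% at 4000 to 8000 in EGT>w1118 and from 16.2% to 26.3% in PCts>W1118. Upper ureter PCs of EGT>Yki had 12.2% at 500 to 1000 UMIs, 10.6% at 1000 to 2000 and 27.2% at 8000 to 16000, and those of PCts>W1118 had 22.8% at 4000 to 8000 and 20.6% at 8000 to 16000, so the share was not higher in every deeper bin. Main segment PCs had 4.47%, 3.46% and 3.41% at 4000 to 8000, 8000 to 16000 and over 16000 UMIs in EGT>w1118, and 3.36%, 2.79% and 3.55% in PCts>W1118, with 26 nuclei in the last bin, so their share did not go up steadily with depth. In the RNAi-labelled library it was 6.81% and 9.09% in the first 2 of these bins.

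**Figure D2:**
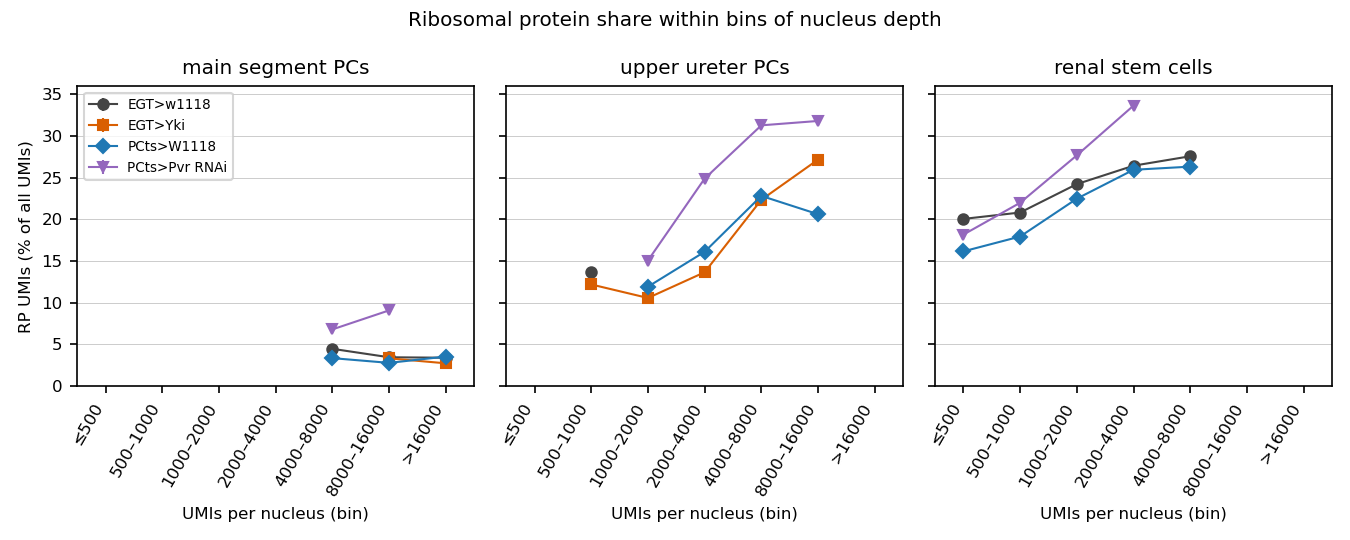
RP share of UMIs (y axis, %) in bins of UMIs per nucleus (x axis) for main segment PCs, upper ureter PCs and renal stem cells, 1 line per library, bins of at least 20 nuclei, bars for the 95% exact binomial interval. In the 4000 to 8000 bin main segment PCs are at 3.36% in PCts>W1118 and 6.81% in the RNAi-labelled library, and upper ureter PCs at 22.8% and 31.3%.

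Although the RP share of all UMIs differed several-fold between main segment PCs and renal stem cells, most single RP genes took similar parts of the RP UMIs in both. When each gene was expressed as a percentage of RP UMIs, main segment PCs and renal stem cells were within 1.5-fold of each other for 78 of 81 genes in EGT>w1118, 73 of 76 in EGT>Yki, 79 of 81 in PCts>W1118 and 80 of 81 in the RNAi-labelled library. No gene was past 1.5-fold in the same direction in every library among the 76 genes measured in all of them, which leave out RpL22 for its 6 UMIs in the renal stem cells of EGT>Yki. Over all cell types with at least 5000 RP UMIs the spread was wider for some genes, such as RpLP2 at 1.01% to 2.12% of RP UMIs in PCts>W1118 and RpL40 at 0.547% to 1.08% in EGT>w1118.

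RpL22 had the highest ratio of main segment to renal stem cells in the other 3 libraries. RpL22 encodes a 60S surface protein whose Drosophila form carries a long histone H1-like extension, and the gene lies on chromosome X at 762560 to 765130 of the minus strand (BDGP6). It made up 0.294% of RP UMIs in main segment PCs and 0.112% in renal stem cells of EGT>w1118, 0.346% and 0.125% in PCts>W1118, and 0.205% and 0.114% in the RNAi-labelled library. The log2 ratios of main segment to renal stem cells were 1.39 (95% counting interval 1.22 to 1.56), 1.47 (1.27 to 1.68) and 0.85 (0.59 to 1.11). Set against all UMIs the order was the other way, at 1.04 RpL22 UMIs per 10,000 in main segment PCs and 2.76 in renal stem cells of EGT>w1118, so RpL22 was higher in renal stem cells but by less than the rest of the RP genes. Noncoding genes overlap RpL22 on the same strand, 3 in all with 2 snoRNAs among them, and their reads cannot be told apart from those of RpL22 here.

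The comparison of the RNAi-labelled library with PCts>W1118 asks what a knockdown of Pvr in principal cells does to the tubule without a tumor. The RP share was 12.2% against 6.33%, a log2 ratio of 0.95. A higher RP share was found in each of the 7 types that reached 20 nuclei on both sides, by log2 ratios of 0.38 in renal stem cells to 1.55 in main segment PCs. Initial and transitional PCs came next, at 1.14 (1.12 to 1.15). Stellate cells, which are not principal cells, had a ratio of 0.78.

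In main segment PCs of that library, 79 of the 83 RP genes compared (those with a UMI in 10% of the nuclei of 1 of the libraries) were more than 1.5-fold higher than in PCts>W1118, on the scale of log2 of mean UMIs per 10,000 plus 1. Of all 4939 genes compared, 4.11% were higher past 1.5-fold and 1.9% lower. The median RP gene was 1.21 higher and the median of all genes 0.01 higher. RpLP1 was at 20.4 against 6.14 UMIs per 10,000, a log2 fold change of 1.58, and RpL26, a protein near the exit of the 60S tunnel, at 13.01 against 3.74, a change of 1.56. RpLP2, the partner of RpLP1 in the P-stalk, was at 13.01 against 3.77.

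The 4 RP genes of main segment PCs that stayed within 1.5-fold were RpL22, RpL34a, RpLP0-like and RpS15Ab. RpL22 was at 1.72 against 1.04 UMIs per 10,000 and RpLP0-like at 0.14 against 0.11, and low genes are held near 0 by the pseudocount. In the RP pool of these cells 80 of 81 genes were within 1.5-fold of the control, and RpL22 was the exception at a log2 ratio of -0.76.

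The other types of this comparison gave smaller counts. More than 1.5-fold higher were 63 of 82 RP genes in initial and transitional PCs (background 3.73%), 56 of 83 in upper ureter PCs (1.95%), 20 of 81 in lower ureter PCs (12.2%), 12 of 83 in lower tubule PCs (0.748%), 3 of 81 in stellate cells (1.81%) and 0 of 81 in renal stem cells (3.41%). No RP gene was lower past 1.5-fold in any of the 7 types, beside 5.24% of all genes in renal stem cells, 3.1% in stellate cells, 1.08% in lower tubule PCs, 16.5% in lower ureter PCs, 3.33% in upper ureter PCs and 1.71% in transitional PCs. RpS2 and RpS19a, both 40S proteins, led in upper ureter PCs, at 36.8 against 18.6 and 20.1 against 9.95 UMIs per 10,000. In lower ureter PCs RpS14a was at 23.9 against 8.56, a log2 fold change of 1.38, over 33 and 39 nuclei.

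Other genes of translation had lower medians in the same main segment nuclei, where 4.11% of all genes were higher past 1.5-fold and 1.9% lower. Of 37 eIF and eEF genes compared, 6 were higher past 1.5-fold and none lower, with a median of 0.21. Of 57 mitochondrial RP genes compared, 0 were past 1.5-fold, with a median of 0.13, and 0 of 6 ribosome biogenesis genes were. Rack1 and sta, which encode 40S proteins but whose symbols lie outside the rule, were both higher, with a median of 1.14. Mitochondrially encoded genes took 0.0852% of UMIs against 0.0832%, with 0 of 9 past 1.5-fold. Among other protein-coding genes that span less than 2 kb, a list drawn up after values were seen, 79 of 1310 were higher and 9 lower, with a median of 0.09. These genes took 15.7% of UMIs against 11.5%, and the genes that span more took 72.7% against 81.8%.

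The difference was also computed in a narrower range of depth and against the other control library. The median depth of main segment PCs was 8377 UMIs against 9678, and among nuclei of over 4000 to 16000 UMIs the log2 ratio was 1.53. Against EGT>w1118 in place of PCts>W1118 it was 1.28. These 2 checks were chosen after the data had been seen. Of the main segment nuclei, 29.8% had an RP share above 10% in the RNAi-labelled library and 0.937% in PCts>W1118. The median nucleus had 7.03% against 2.55%.

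**Figure D3:**
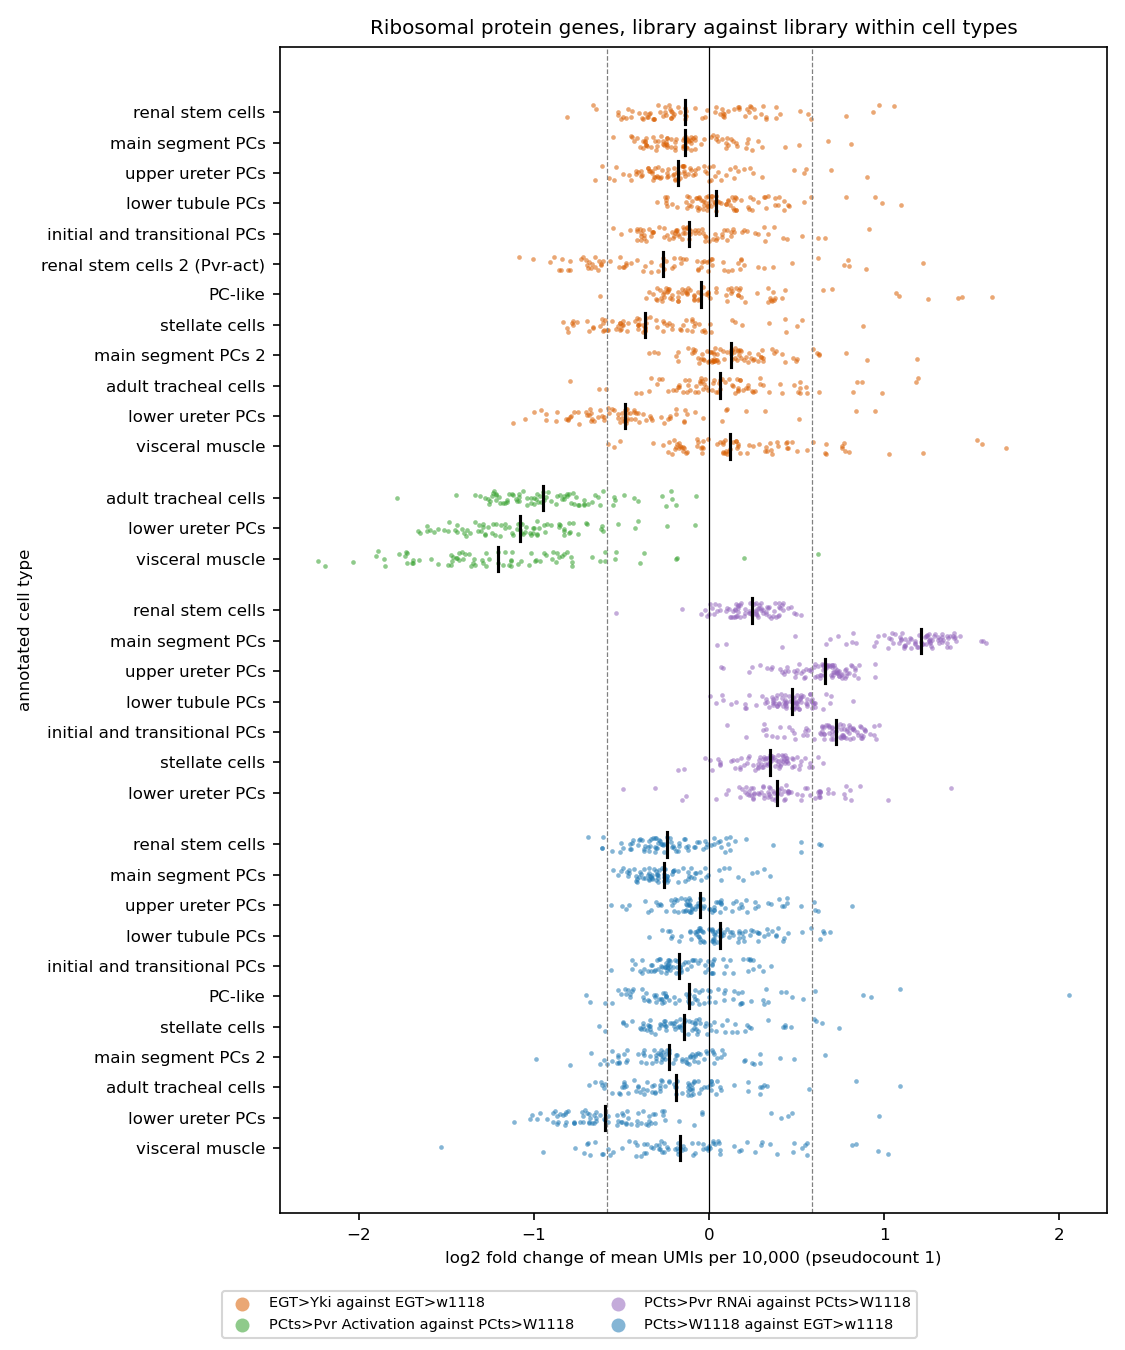
Log2 fold change of mean UMIs per 10,000 plus 1 (x axis) for each RP gene compared (1 point per gene), by comparison (color) and cell type (y axis), with a black bar for the median and dashed lines at 1.5-fold. In main segment PCs of the RNAi-labelled library the median is 1.21, and in the 3 types of PCts>Pvr Activation the medians are -0.95, -1.08 and -1.21.

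Activation of Pvr in PCs was compared with PCts>W1118 to follow what the receptor does when it signals without a ligand from a tumor. Over all nuclei the RP share was 8.98% against 6.33%, a log2 ratio of 0.50. Its direction depended on how nuclei were weighted. With each nucleus counted equally the log2 ratio was -0.06, and with each shared cell type counted equally it was -1.43. The part of nuclei of low depth in the equally weighted ratios was not tested. The types shared with the control at 20 nuclei or more were 3, since most nuclei of this library carry labels marked Pvr-act.

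Renal stem cells (Pvr-act), 2505 nuclei of PCts>Pvr Activation, had an RP share of 26.8% and a mean of 793 RP UMIs per nucleus. The 1093 renal stem cells of PCts>W1118 had 21.4% and 195 RP UMIs, at median depths of 1745 and 511. In bins of 500 to 1000, 1000 to 2000, 2000 to 4000 and 4000 to 8000 UMIs the Pvr-act nuclei had 17.9%, 20.2%, 24.7% and 26.4%. The control nuclei had 17.9%, 22.5%, 26.0% and 26.3% in these bins. The 33 Pvr-act nuclei of over 16000 UMIs had 42.1%, a depth with no bin of control nuclei. Lower segment PCs (Pvr-act) had 3.9%, lower tubule PCs (Pvr-act) 4.81% and renal stem cells 2 (Pvr-act) 10.3%. These labels were set by clustering, and values in differently named clusters are given side by side with no comparison of 1 cell type.

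In the 3 shared types the RP share was lower in PCts>Pvr Activation. It was 9.04% against 20.4% in tracheal cells (log2 ratio -1.17), 6.44% against 16.8% in lower ureter PCs (-1.38) and 7.60% against 25.0% in visceral muscle (-1.72, with 26 and 21 nuclei). More than 1.5-fold lower were 69 of 81 RP genes in tracheal cells (background 25.2%), 76 of 81 in lower ureter PCs (22.8%) and 73 of 81 in visceral muscle (23.1%). Higher past 1.5-fold were 0, 0 and 1, beside 37.2%, 23.2% and 51.2% of all genes. RpS6, the 40S protein that S6 kinase phosphorylates, was at 5.90 against 22.8 UMIs per 10,000 in tracheal cells, a log2 fold change of -1.78. RpL8, a 60S protein of the peptidyl transferase region, was at 9.19 against 26.7. RpL22 was at 1.40 against 1.52 and RpS21 at 14.2 against 16.4 in the same cells, the smallest differences there among RP genes.

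Mitochondrially encoded genes moved with the RP genes in tracheal cells, with 9 of 9 lower past 1.5-fold and 0.218% of UMIs against 1.44%, and in visceral muscle, with 9 of 9 lower and 0.195% against 2.41%. In lower ureter PCs they went the other way, at 0.411% against 0.299%. The nuclei were deeper in each of the 3 types. Median depths were 1566 UMIs against 634 in tracheal cells, 1639 against 433 in visceral muscle and 2008 against 1499 in lower ureter PCs. Whether nuclei of low depth were kept alike in both libraries is not given. The part of such nuclei in the lower RP share was not tested in visceral muscle or lower ureter PCs. In tracheal cells of over 500 to 2000 UMIs, a range chosen after the data had been seen, the log2 ratio was -0.996. Against EGT>w1118 it was -1.42. The part of mitochondrial or other cytoplasmic RNA in the result was not tested. Other genes spanning less than 2 kb took 10.1% of UMIs against 27.1% there.

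EGT>Yki was compared with EGT>w1118. A remote effect of the gut tumor and an effect of the transgene within the tubule cannot be told apart here. Renal stem cells numbered 30 nuclei in EGT>Yki and 1592 in EGT>w1118. Over all nuclei the RP share was 8.64% against 7.12%, a log2 ratio of 0.28, which turned to -0.11 with each nucleus counted equally and to -0.11 with each cell type counted equally. Within cell types the differences were small and in both directions: of 12 types, 5 were higher and 7 lower. The lowest was lower ureter PCs, at 18.3% against 25.6% (log2 ratio -0.49), followed by stellate cells at 8.00% against 11.1% (-0.47). The highest was visceral muscle, at 30.6% against 25.5% (0.26, with 28 and 39 nuclei). The mitochondrially encoded share was lower in EGT>Yki in all 12 types, those with a higher RP share included, at 0.324% against 0.788% in lower ureter PCs, 0.245% against 0.61% in stellate cells and 0.175% against 0.324% over all nuclei. Its part in these differences was not tested. Main segment PCs had 3.07% against 3.55% (-0.21). Lower past 1.5-fold were 29 of 81 RP genes in lower ureter PCs, beside 15.0% of all genes, and 17 of 81 in stellate cells, beside 8.84%. Higher were 2 (24.2%) and 1 (8.65%) in these types. In visceral muscle 14 of 82 were higher and 0 lower, beside 21.8% and 24.9%, so the share of RP genes higher was below that of all genes. In main segment PCs 2 of 82 were higher and 0 lower, beside 1.82% and 1.93%.

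Over all nuclei of this comparison 5 of 81 RP genes were higher past 1.5-fold and 3 lower, beside 6.34% and 5.15% of 3751 genes. With UMIs pooled over nuclei the counts were 9 higher and 0 lower, and the share of all genes on that scale is not given here. The 5 were RpL41, RpL29, RpS21, RpL39 and RpL38. The 3 were RpS3, a 40S protein at the mRNA entry that also has a DNA repair activity, at 21.1 against 40.4 UMIs per 10,000, RpS15Aa at 12.7 against 19.7 and RpS24 at 9.56 against 14.9. RpL35A and RpL23A came next, at log2 fold changes of -0.50 and -0.49. These means cover all nuclei, and renal stem cells were 47.1% of the nuclei of EGT>w1118 and 0.824% of those of EGT>Yki. In EGT>w1118 pooled RpS3 was at 67.7 UMIs per 10,000 in renal stem cells and 6.28 in main segment PCs. The part of the mix of cell types in these differences was not tested.

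EGT>Yki was the library with 661 PC-like nuclei, whose RP share was 23.9%, against 22.4% in 32 such nuclei of EGT>w1118 and 24.8% in 89 of PCts>W1118. The 24 nuclei labelled lower segment PCs 2 (Pvr-act) in EGT>Yki had a pooled RP share of 40.5%, while the median nucleus had 17.9%. The same label in PCts>Pvr Activation had 14.7% over 725 nuclei.

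The 2 control libraries differ in driver and in UAS-GFP and show how far RP genes can differ without a tumor or a Pvr transgene. PCts>W1118 had 6.33% against 7.12% in EGT>w1118, a log2 ratio of -0.17. Within 11 cell types the ratios ran from -0.61 in lower ureter PCs to 0.36 in lower tubule PCs, a wider range than between EGT>Yki and EGT>w1118. In lower ureter PCs 41 of 81 RP genes were lower and 1 higher past 1.5-fold, beside 12.4% and 22.8% of all genes. The mitochondrially encoded share was lower in PCts>W1118 in all 11 types, at 0.299% against 0.788% in lower ureter PCs and 0.18% against 0.324% over all nuclei, and its part was not tested. In main segment PCs 0 of 82 were past 1.5-fold in either direction, beside 1.71% higher and 1.42% lower. Over all nuclei 0 of 81 RP genes were higher past 1.5-fold and 8 lower, beside 2.45% and 1.77% of 3669 genes. With pooled UMIs 0 were lower, and with a pseudocount of 0.1, or centred on the median gene, 14 were. The mix of cell types differed between the controls, and its part in the means over all nuclei was not tested. RpS3 was at 22.8 against 40.4 UMIs per 10,000, RpL23A at 11.99 against 20.8, RpLP0, the P-stalk base, at 11.0 against 19.2, RpL3 at 14.7 against 24.6 and RpS4 at 20.1 against 32.1.

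Some genes for very small RPs took different shares of the RP pool in different libraries, across cell types. RpL41 encodes a peptide that is among the shortest known proteins, and its gene spans 24903416 to 24903935 of chromosome 2R, minus strand (BDGP6). Its mean was 6.58 UMIs per 10,000 in EGT>w1118, 16.4 in EGT>Yki, 9.09 in PCts>W1118, 16.7 in PCts>Pvr Activation and 9.36 in the RNAi-labelled library. As a percentage of RP UMIs it ranged over cell types with at least 5000 RP UMIs from 0.322% to 0.539% in EGT>w1118, from 0.938% to 2.22% in EGT>Yki, from 0.690% to 0.885% in PCts>W1118, from 1.13% to 1.62% in PCts>Pvr Activation and from 0.527% to 0.694% in the RNAi-labelled library. The 2.22% was in lower segment PCs 2 (Pvr-act), with 24 nuclei, and the next highest type of EGT>Yki had 1.41%. The ranges of EGT>w1118 and PCts>W1118 did not overlap, nor did either overlap that of EGT>Yki. These are ranges over cell types of 1 library each, which are not replicates.

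RpL29, a small 60S protein, had 0.162% to 0.340% of RP UMIs over the cell types of EGT>w1118 and 0.409% to 0.686% over those of EGT>Yki. It averaged 3.07, 7.90, 4.47, 7.18 and 4.90 UMIs per 10,000 in the 5 libraries in the order EGT>w1118, EGT>Yki, PCts>W1118, PCts>Pvr Activation and RNAi-labelled. RpL39, which lines the exit tunnel of the 60S subunit, had 0.307% to 0.451% in EGT>w1118 and 0.678% to 0.954% in EGT>Yki. In PCts>W1118, the other control, RpL29 had 0.375% to 0.498% and RpL39 0.455% to 0.574%. For RpL41, RpL29 and RpL39, named for their high fold changes in these data, the range of EGT>w1118 thus lay below that of EGT>Yki. It also lay below that of PCts>W1118, for RpL39 by a narrow gap. Cell types of 1 library are not replicates, and the share of all RP genes with separate ranges is not given here.

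RpS21, a 40S protein whose loss in Drosophila larvae gives overgrown blood-forming organs, averaged 5.65, 10.8, 7.75, 15.998 and 8.68 UMIs per 10,000 in the same order. It was highest in PCts>Pvr Activation, where it made up 0.928% to 1.47% of RP UMIs over cell types against 0.527% to 0.832% in PCts>W1118. RpL30, a 60S protein, averaged 6.87 against 4.02 in that comparison and RpL41 16.7 against 9.09. With RpS21 they were the 3 of 81 RP genes higher past 1.5-fold over all nuclei, beside 14.9% of 3989 genes. The 3 lower were RpS6 at 8.59 against 15.1, RpL8 at 11.1 against 18.6 and RpS3 at 14.5 against 22.8, beside 17.6%. With UMIs pooled over nuclei 23 were higher and 0 lower, and the share of all genes on that scale is not given here. The mix of cell types also differed between these libraries, and its part in the means over all nuclei was not tested. RpL29 and RpS27 were the next highest, at 0.58 and 0.39, and RpL35A and RpS10b the next lowest, at -0.53 and -0.47.

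In the RP pool within single cell types, RpL41 was the gene with the highest ratio in 9 of 11 types between EGT>Yki and EGT>w1118, with a log2 ratio of 1.31 in main segment PCs, 1.17 in upper ureter PCs and 1.35 in stellate cells. The exceptions were lower tubule PCs, led by RpL29, and visceral muscle, led by RpL37A. Between PCts>W1118 and EGT>w1118, which share EGT>w1118 with it, RpL41 had 0.89 in main segment PCs and RpL29 0.95 in renal stem cells. The RNAi-labelled library did not show this pattern against PCts>W1118: no gene of its pool was above 1.5-fold in any of the 7 types. Over 83 genes the pool ratio and the exonic length of the gene had a Spearman correlation of -0.43 between EGT>Yki and EGT>w1118, -0.38 between PCts>Pvr Activation and PCts>W1118, -0.50 between PCts>W1118 and EGT>w1118 and 0.03 between the RNAi-labelled library and PCts>W1118. These are descriptions across genes, which are not replicates and share libraries.

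**Figure D4:**
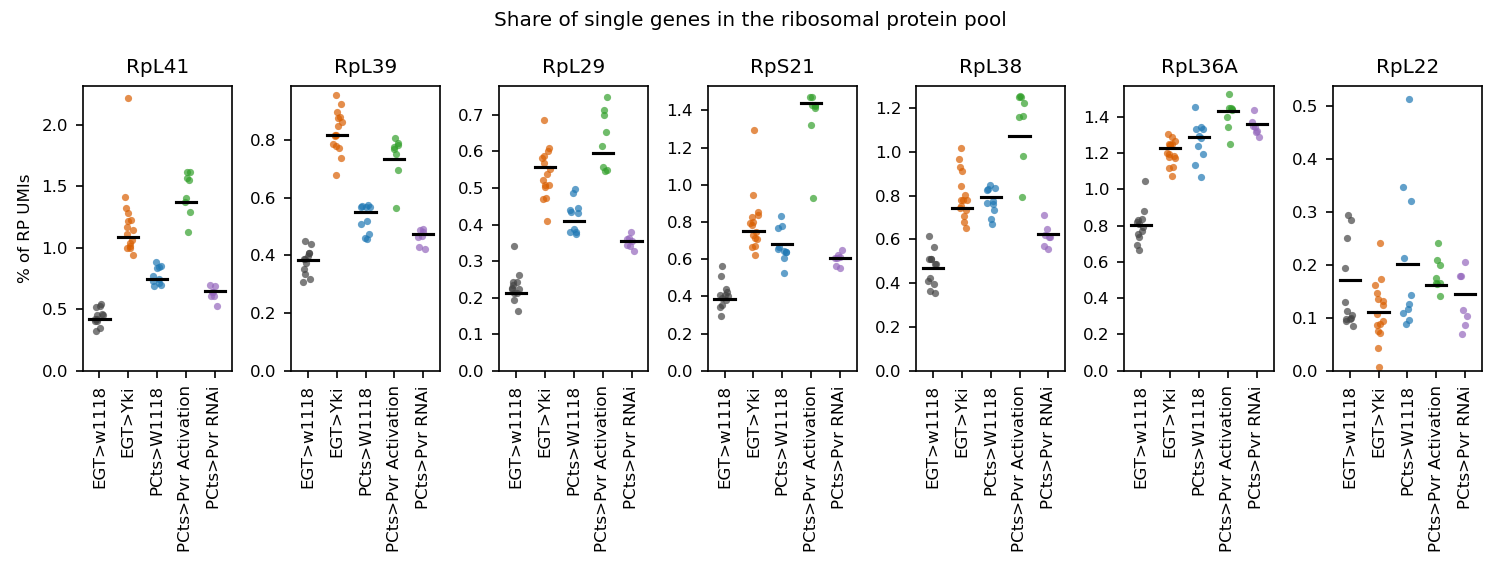
Share of RP UMIs (y axis, %, scaled per gene) of RpL41, RpL39, RpL29, RpS21, RpL38, RpL36A and RpL22 in each cell type with at least 20 nuclei and 5000 RP UMIs (points), by library (x axis), with a black line for all nuclei of the library. RpL41 lies at 0.322% to 0.539% in the cell types of EGT>w1118 and at 0.938% to 2.22% in those of EGT>Yki. The 2.22% is from lower segment PCs 2 (Pvr-act), with 24 nuclei, and the next highest type has 1.41%.

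RpL38 and RpL36A completed this group between the controls. RpL38 stood at 7.04 UMIs per 10,000 in EGT>w1118 and 9.98 in PCts>W1118 and had the highest fold change of that comparison, 0.45. RpL36A averaged 12.5 and 14.6. Between the RNAi-labelled library and PCts>W1118 over all nuclei, 0 of 82 RP genes were past 1.5-fold in either direction, beside 0.591% higher and 1.23% lower of 3889 genes. The median log2 fold change of all these genes was -0.02, and the share of them above 0 is not given here. Of the 82 RP genes 79 lay above 0, with a median of 0.27. The highest were RpL26, RpS19a, RpS14a, RpL31 and RpS2, from 0.51 to 0.45, and the lowest RpS3 at -0.38, RpL38 at -0.09, RpS15Ab at -0.01, RpS14b at 0.03 and RpL41 at 0.04. With UMIs pooled over nuclei in place of averaged, 74 RP genes were past 1.5-fold higher. The share of all genes with pooled UMIs is not given here, so this count has no background beside it.

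The P-stalk genes did not keep 1 ratio across libraries. RpLP1 averaged 34.0, 36.4, 29.2, 29.0 and 35.7 UMIs per 10,000 in the order EGT>w1118, EGT>Yki, PCts>W1118, PCts>Pvr Activation and RNAi-labelled, and RpLP2 21.7, 22.6, 19.0, 18.7 and 24.8. RpLP0, which anchors both to the ribosomal RNA, averaged 19.2, 15.96, 11.0, 7.91 and 13.3, so it varied more between libraries than its partners did. RpL40 and RpS27A are made as fusions with ubiquitin at their N-terminal end. RpL40 averaged 9.87, 9.68, 9.04, 7.66 and 12.1, and RpS27A 20.005, 17.6, 15.6, 18.7 and 18.6, with RpS27A also overlapping the coding gene Ip259 on the same strand. In main segment PCs of the RNAi-labelled library they were at 6.30 against 1.85 and 10.8 against 4.42.

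Second copies of RP genes were examined as the percentage of the UMIs of a pair that the minor member held. In most of the 13 pairs the minor member was near absent in the tubule. RpL7-like had 1 UMI over all libraries, RpS10a and RpL10Aa had 2 each, RpL37-2 had 9, RpL22-like 15 and RpS19b 23, and RpS28a had none. RpS28-like, set beside RpS28b, had 31. RpL22-like and RpS19b are known in Drosophila for expression in the germline. RpS15Ab held 1.39% to 2.02% of the RpS15A pair, and within PCts>Pvr Activation 0.859% (0.727% to 1.01%) in renal stem cells (Pvr-act) and 2.42% (2.07% to 2.81%) in lower tubule PCs (Pvr-act).

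Over all nuclei, RpL24-like held a higher share of its pair in EGT>Yki than in the other 4 libraries. Its yeast relative Rlp24 takes the place of the RpL24 protein in precursors of the 60S subunit, so it acts in ribosome assembly. RpL24-like held 12% of the UMIs of the pair in EGT>w1118, 15.6% in EGT>Yki, 11.1% in PCts>W1118, 12.1% in PCts>Pvr Activation and 10.7% in the RNAi-labelled library. It was at 13.7% against 10.8% in main segment PCs of EGT>Yki and EGT>w1118, 15.3% against 11.1% in lower tubule PCs, 15.1% against 9.96% in main segment PCs 2 and 15.6% against 14.9% in upper ureter PCs. The counting intervals were apart in lower tubule PCs (13.3% to 17.4% and 10.1% to 12.2%) and overlapped in the other 3. Lower ureter PCs had 9.70% against 11.9%, with overlapping intervals. The mix of cell types differed, with 43.5% of RP UMIs from upper ureter PCs in EGT>Yki and 5.59% in EGT>w1118. Its part in the values over all nuclei was not tested. In PCts>Pvr Activation the share was 15.1% in lower tubule PCs (Pvr-act) and 8.28% in lower segment PCs (Pvr-act). RpL24-like and RpL24 lie on different chromosome arms, 3R and 2L.

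RpL34a held 15.4% of the RpL34 pair in EGT>w1118, 12.4% in EGT>Yki, 16.7% in PCts>W1118, 13.3% in PCts>Pvr Activation and 15.6% in the RNAi-labelled library. Its share was highest in main segment PCs in both controls among types with over 1000 UMIs of the pair, at 17.5% in EGT>w1118 and 21.3% in PCts>W1118, against 14.3% and 15.5% in renal stem cells. In lower tubule PCs it was at 10.3% (8.42% to 12.4%) in EGT>Yki against 16.4% (15.1% to 17.8%) in EGT>w1118. Both copies encode RpL34, a 60S protein.

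RpS14a and RpS14b lie next to each other on chromosome X, at 7933742 to 7934677 and 7934898 to 7935792 of the plus strand (BDGP6), and encode the same protein. RpS14b held 28.8%, 30.3%, 32.0%, 35.2% and 26.7% of the pair in the order EGT>w1118, EGT>Yki, PCts>W1118, PCts>Pvr Activation and RNAi-labelled. In the RNAi-labelled library main segment PCs had 26.1% and in PCts>W1118 31.4%. Reads from such close copies may be split or dropped in counting, so these percentages are uncertain.

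RpLP0-like, a relative of the yeast assembly factor Mrt4 that is exchanged for the P-stalk base, held 1.87%, 2.11%, 2.41%, 3.6% and 1.44% of its pair in the same order. Within a library it differed between cell types. It was at 3.09% in main segment PCs and 0.935% in renal stem cells of EGT>w1118, at 3.25% and 1.66% in PCts>W1118, and at 8.03% in lower tubule PCs (Pvr-act) against 1.13% in renal stem cells (Pvr-act) of PCts>Pvr Activation. In main segment PCs of the RNAi-labelled library it was at 1.71%, where RpLP0 was at 8.18 against 3.06 UMIs per 10,000 and RpLP0-like nearly level.

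**Figure D5:**
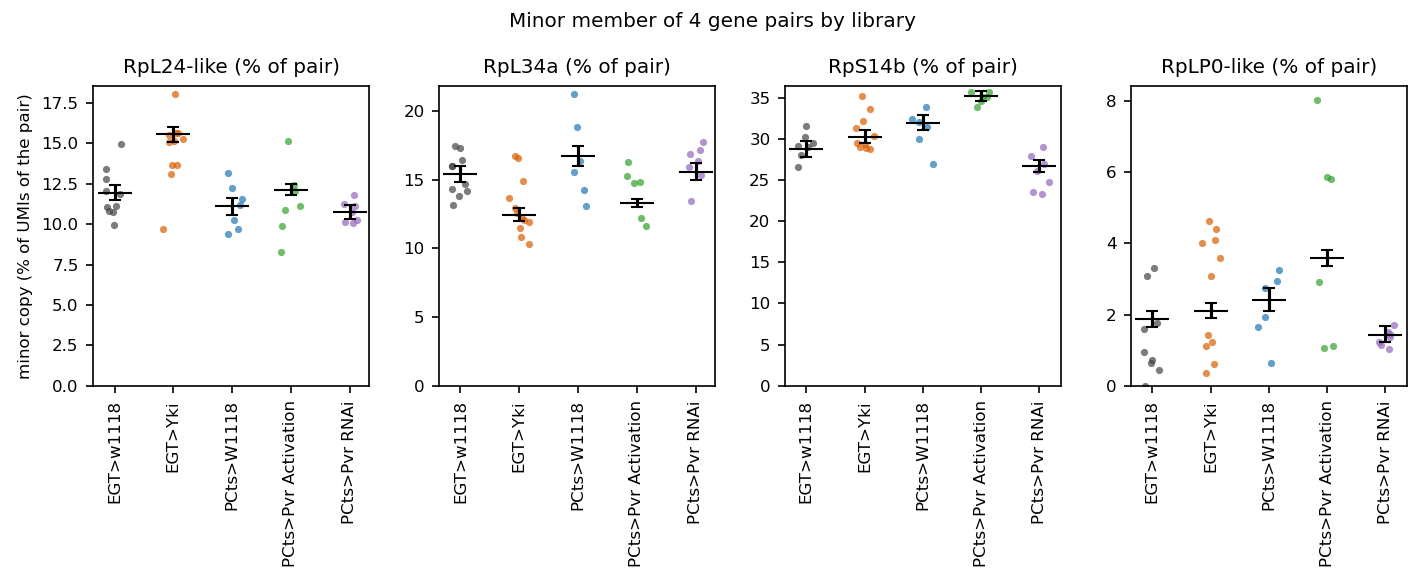
Percentage of the UMIs of a gene pair (y axis) held by RpL24-like, RpL34a, RpS14b and RpLP0-like in each library (x axis), with a black mark and the 95% exact binomial interval for all nuclei and a point for each cell type with at least 20 nuclei and 200 UMIs of the pair. Over all nuclei, whose mix of cell types differs between libraries, RpL24-like is at 15.6% in EGT>Yki and at 10.7% to 12.1% in the other 4 libraries.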

How the data were processed

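Single-nucleus RNA-seq libraries (10x 3′) were counted by the authors with Cell Ranger 7.0.0 and normalized with Seurat (build BDGP6, per the labels). The deposited values are the natural log of 1 plus UMIs per 10,000 of the nucleus, and they were converted back to UMI counts. All values came out whole within 0.001 counts, with 150 to 123301 UMIs per nucleus in 21371 nuclei. Intronic reads count by default in this version. Nucleus filters, removal of doublets and correction for free RNA are not given in the sources used here, and no doublet caller was run. Cell types and libraries were taken from the deposited annotation. Symbols came from the Ensembl annotation by identifier (16447 matched, 48 did not).

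RP share is RP UMIs of all UMIs, with exact binomial (Clopper-Pearson) 95% intervals, and log2 ratios have exact conditional intervals. Types needed 20 nuclei in both libraries. Gene levels are means of UMIs per 10,000 over nuclei, compared as log2 with a pseudocount of 1 where seen in 10% of nuclei of either library. With 1 library per group no test was run. 3′ UMIs count molecules and are not divided by length. Named genes were the gene pairs (1 pair is not reported here), P-stalk genes, ubiquitin fusions and the 5 highest and 5 lowest RP genes over all nuclei of each comparison. Genes named within cell types, and RpL22, were chosen after their values were seen. The members and lists were chosen with earlier results of these data known. Functions were checked on simulated counts. Python 3.11.15, numpy 2.4.6, scipy 1.17.1 and pandas 2.3.3 were used. Alternatives covered weighting, totals, depth, cell types, control library, pseudocount, filter and centring. No sequences are shown, and the markers esg and Dl were not analysed here.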

Additional observations from a re-analysis of the deposited data

Results flagged for a closer look

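Cell types moved in opposite directions under the same comparison in 2 cases, and none of these differences between types was tested, as each type had 1 library per genotype. Between EGT>Yki and EGT>w1118 the log2 ratio of the RP share was 0.26 in visceral muscle, with 28 and 39 nuclei, and -0.49 in lower ureter PCs, with 67 and 74. Between PCts>W1118 and EGT>w1118 it was 0.36 in lower tubule PCs and -0.61 in lower ureter PCs, with 39 and 74 nuclei in the latter. Both comparisons use EGT>w1118, whose lower ureter PCs had 25.6%. The enterocyte list in lower ureter PCs also differed between libraries, and its part in these ratios was not tested.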

How the results depend on the processing

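Recomputed log2 ratios of the RP share over all nuclei are given for EGT>Yki, PCts>Pvr Activation, the library labelled PCts>Pvr RNAi and PCts>W1118 against EGT>w1118, in that order. With each nucleus weighted equally they were -0.11, -0.061, 0.28 and -0.40, so the first 2 changed sign, as they did with each cell type weighted equally, at -0.11 and -1.43, where the third was 0.63. Without the 25% of nuclei with the fewest UMIs the first 3 were 0.28, 0.51 and 0.98, and with tubule cell types alone the 4 were 0.30, 0.52, 0.97 and -0.15. Without the RP gene with the most UMIs the first and last were 0.27 and -0.17. Against the other control library the first 3 were 0.45, 0.33 and 0.78. Leaving out mitochondrially encoded genes kept all 4 within their counting intervals.

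With UMIs pooled over nuclei, the counts of RP genes past 1.5-fold became 9 higher and 0 lower for EGT>Yki, 23 and 0 for PCts>Pvr Activation, 74 higher for the library labelled PCts>Pvr RNAi, and 0 lower for the controls, where a pseudocount of 0.1 and centring on the median gene each gave 14 lower. The shares of all genes under these settings are not given here, so the counts have no background beside them. All other settings kept these counts within 1.5 times. For RpL24-like, RpL34a, RpS14b and RpS15Ab, 33 of 40 recomputed shares stayed within the counting interval, and the widest shift was 1.21 percentage points.

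No paired analysis was possible because each genotype had 1 library. Leaving out a library in turn was not possible for the same reason. The cause of these shifts was not tested. Depth limits second copies with under 100 UMIs and types with about 20 nuclei.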
